A study of Mus musculus with 4 samples.

Results

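The PDL of 10-week-old Mkx-KO mice was compared with the PDL of 10-week-old WT mice, with 1 array for each genotype. PDL is read here as the periodontal ligament, WT as wild type and Mkx-KO as a knockout of Mkx. These are 2 of the study's 4 arrays, the others being Mkx-KO and WT PDL at 4 weeks of age, and the question put to the pair was how the adult ligament transcriptome differs without Mkx. A gene was counted as measured when its brightest probe was well above background, by the scanner software's own flag, on both arrays of 10 weeks. That gave 16457 measured genes of 22911 genes named on the array. The labels give tissue, age and genotype. They do not give the knockout allele, the strain, the sex, or whether an RNA came from 1 mouse or from several. With 1 array per group no test could be made, and no p-value is given.

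Mkx encodes Mohawk, a homeobox transcription factor of tendon and ligament cells, and mice without it are known for thin tendons with small collagen fibrils. The periodontal ligament is the connective tissue that holds a tooth root in its socket. Its fibroblasts make and remodel collagen quickly, and it lies between cementum and alveolar bone, with marrow on the far side of the bone and gingival epithelium above it.

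Levels are log2 signal minus the 75th percentile of the array, so 0 is the 75th percentile. A difference is the Mkx-KO level minus the WT level, on the log2 scale, and a difference of 1 is 2-fold. The technical error of a difference is the scanner software's error of both spots combined, with a median of 0.20. It covers the array and not the spread between mice.

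The Mkx-KO array showed far less RNA of interferon-induced genes than the WT array. They were led by Cxcl9 (levels of 3.17 in WT and -2.56 in Mkx-KO) and Cxcl10 (1.96 and -1.88), which encode chemokines that attract activated T cells. Genes of stratified epithelium were also lower, from the gingival keratin Krt76 (3.56 and 1.17) to the desmosomes and the cornified envelope, and 21 of 23 cholesterol synthesis genes had negative differences. Genes of bone-resorbing osteoclasts were higher in all 20 of 20 members, and genes of B cells, neutrophils, red cell precursors, eosinophils and platelets were mostly higher. Among the 4 arrays, WT at 10 weeks was the highest in 15 of 18 interferon-gamma genes, against 21.6% of all genes. It was the lowest in 20 of 20 osteoclast genes, against 34.2% of all genes. Gland and nasal genes differed by wide margins in both directions, and several genes of GABA neurons were higher. None of the 11 fibrillar collagen genes was 2-fold apart, against 2.41% of all genes, a share at which 11 genes would rarely hold one. Their values ran from -0.46 for Col24a1 to 0.45 for Col5a3. The lysyl oxidase Lox, which cross-links collagen, was higher (3.35 and 4.29) but under 2-fold. It was the highest of 8 lysyl oxidases and hydroxylases.

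Both probes for Mkx were lower on the array labelled Mkx-KO. The brighter one gave 553 signal units for WT against 108 for Mkx-KO, which are levels of 0.84 and -1.26. Its difference was -2.10 (technical error 0.21), and the Mkx-KO level was 23.3% of the WT level. The second probe read 66.2 and 14.5 units, for a difference of -1.94 (technical error 0.30), or 26.0% of WT. Both were well above background in the knockout. The files used here do not say where on the transcript the probes lie relative to the deleted part. At 4 weeks the same probes differed by -1.65 and -1.38. Among the genes measured on both arrays, 20 had a lower difference than Mkx. Normexp background correction is an alternative that models each array's background, run here on median spot signals. It also adds an offset of 50 units to every spot, which by itself shrinks the differences of dim genes. With normexp the Mkx difference was -1.47.

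The genes next to Mkx did not share its difference. Of the 20 nearest named genes, 10 on each side, 16 were measured, and none differed by 2-fold. Their median was -0.04, with 5 positive and 11 negative values. The range ran from -0.38 for Thoc1, an mRNA export factor, to 0.22 for Zeb1, a zinc finger repressor. The closest measured genes on the 2 sides, Rab18 and Mpp7, read -0.07 and -0.05. Wac and Kif5b read 0.16 and 0.06.

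Across all measured genes the arrays were close. The differences had a median of 0.01 and an SD of 0.37, the central 90% lay between -0.54 and 0.56, and 88.0% of genes were within 0.5 of 0. Positive differences made up 51.5% of genes. Negative ones made up 48.5%. In all 396 genes (2.41%) differed by at least 2-fold, 171 (1.04%) higher and 225 (1.37%) lower in Mkx-KO. At 1.5-fold the count was 1468 genes (8.92%), 745 higher (4.53%) and 723 lower (4.39%). At 3-fold it was 86 (0.523%), 40 higher (0.243%) and 46 lower (0.28%). The differences of 2308 genes (14.0%) were larger than 2 technical errors, and these include all of the 2-fold genes. The spread was narrower at higher signal. In 3 bins of equal size from dim to bright the SD was 0.46, 0.35 and 0.29, and the dim bin held 114 of the genes that were higher and 101 of those that were lower. Normexp shrinks the differences of dim genes through its added offset, so its counts do not show the effect of background removal alone. With normexp, 54 genes were at least 2-fold higher and 96 lower, and of the 80 genes ranked highest and lowest (40 each way) 23 came under 2-fold. For the ranked genes named below, the normexp value follows where it was under 2-fold or differed by more than 1.5 times.

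**Figure D1:**
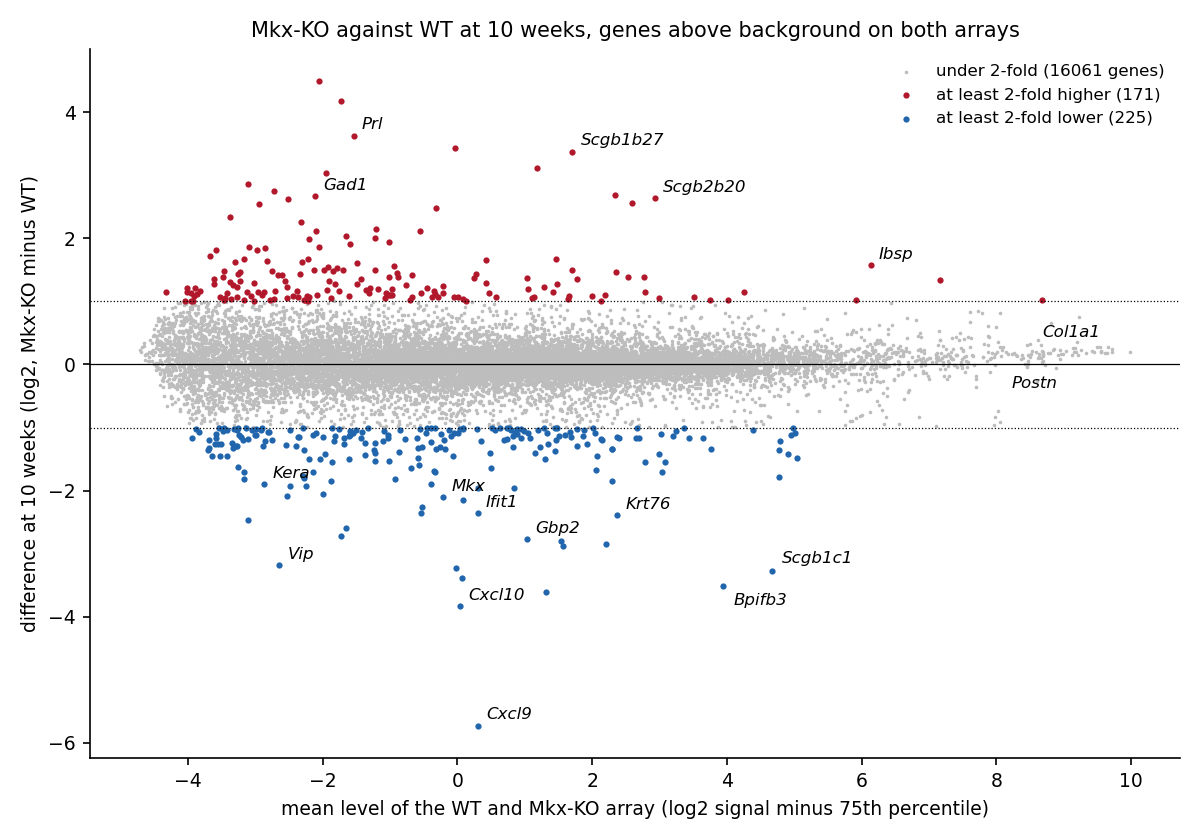
Difference at 10 weeks (log2, Mkx-KO minus WT) against the mean level of both arrays (log2 signal minus 75th percentile) for the 16457 measured genes, 1 point per gene. Red points are the 171 genes at least 2-fold higher, blue points the 225 at least 2-fold lower, and dotted lines mark 2-fold. The cloud of grey points, which are under 2-fold, narrows to the right, Cxcl9 lies lowest at -5.73, and Postn and Col1a1 sit near 0 among the brightest genes.

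The very brightest genes sat slightly above 0 as a group. All 20 of the 20 brightest had positive differences, from 0.15 to 0.76 with a median of 0.21, and 90 of the 100 brightest were positive with a median of 0.18. They included the collagen chain Col1a2 (9.89 in WT and 10.09 in Mkx-KO), the matrix protein gene Sparc (9.52 and 9.70) and the alpha globin Hba-a1 (9.59 and 9.83). Before scaling, the same 20 genes had a median of -0.04, because the 75th percentile itself was 421 signal units in WT and 355 in Mkx-KO, a step of -0.25. Differences near 0.2 in very bright genes therefore lie at the level of their class and are not read as higher below.

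Defining markers were read before any group was described. Of 60 markers for 19 cell types, 57 were well above background on both arrays of 10 weeks. The exceptions were Cnmd of cartilage, Gh of pituitary and Plin1 of adipocytes. Ligament markers were bright, with Postn (periostin) at 8.45 and 8.50, Aspn (asporin) at 6.16 and 6.33 and Tnn (tenascin-W) at 5.27 and 5.41. Markers of neighbouring tissues were present too. Acp5 of osteoclasts read 8.17 and 9.19, Krt5 of epithelium 6.66 and 5.94, Col2a1 of cartilage 5.32 and 5.39, and Acta1 of muscle 3.18 and 3.70. Omp of olfactory neurons read 5.16 and 4.85, and Obp1a of nasal glands 7.64 and 8.46. In such bulk RNA, fewer cells of a type and less RNA per cell cannot be told apart. Throughout, the part of tissue makeup in a difference was not tested.

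The genes were read through 123 lists that hold 2274 genes, of which 2100 were measured. On the lists 61 genes were higher and 66 lower by 2-fold, 6.05% against 2.41% of all genes. Members and lists were chosen with earlier results of these data known, so that higher share is no result of its own. With normexp, 54 of 16457 genes were at least 2-fold higher and 96 lower, the background for the normexp counts below. List medians ran from -1.27 to 0.90. Of the medians, 88 lay within 0.2 of 0, 9 at 0.5 or above and 4 at -0.5 or below.

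**Figure D2:**
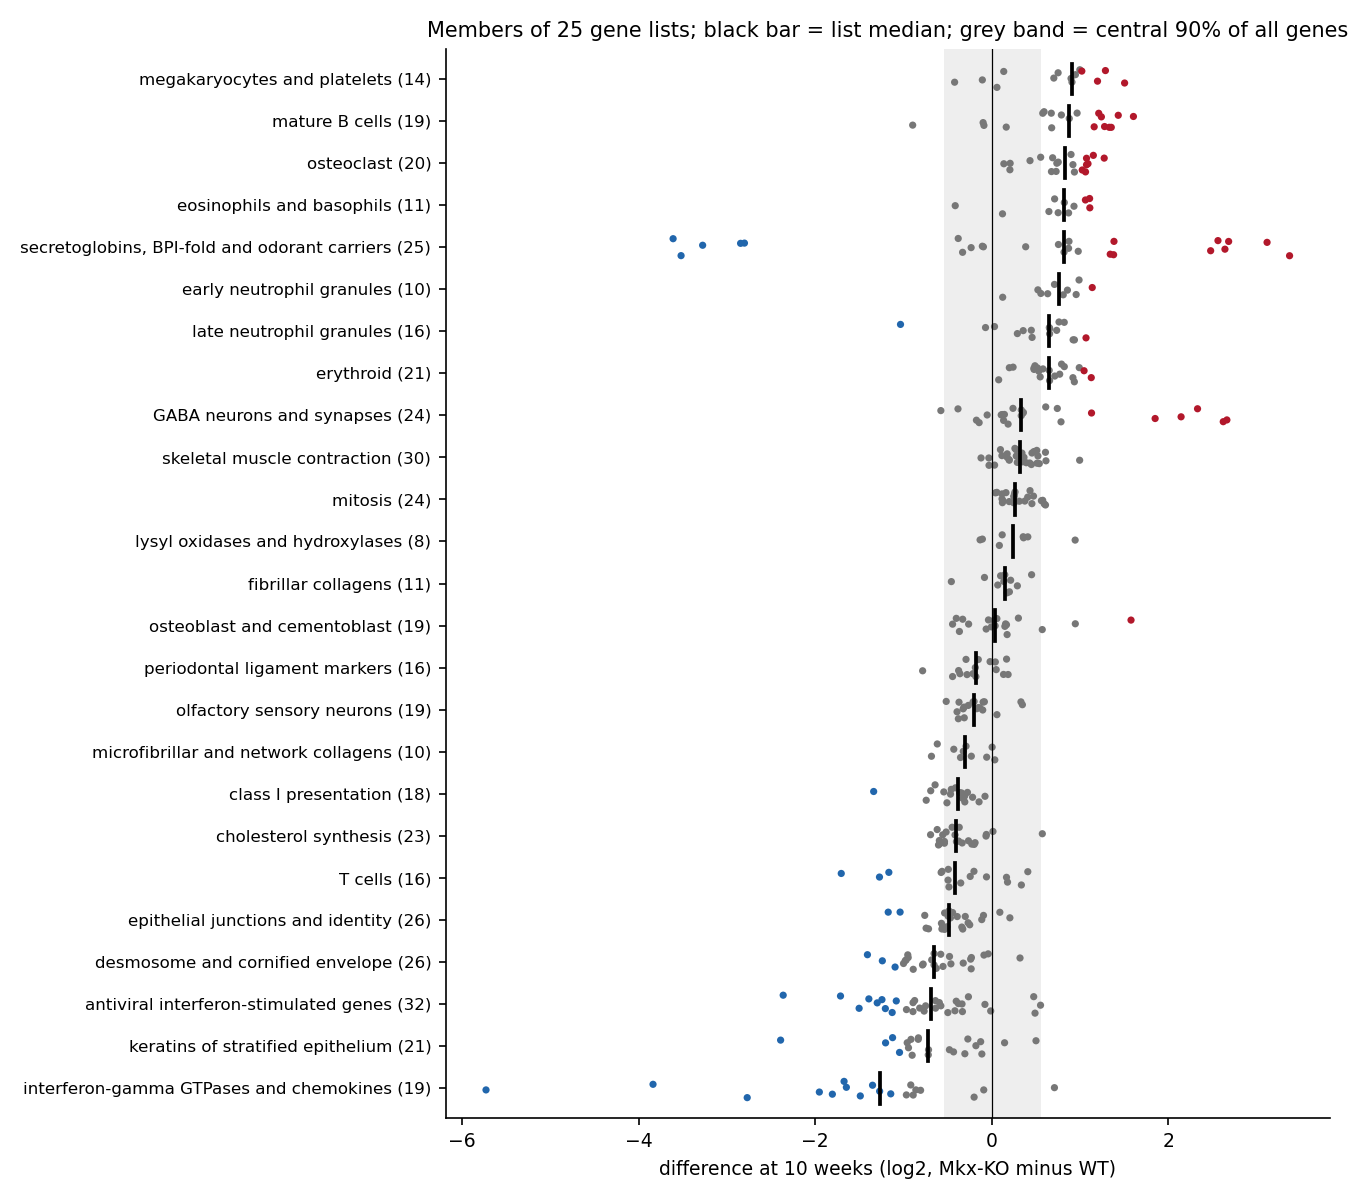
Difference at 10 weeks (log2, Mkx-KO minus WT) of every measured member of 25 gene lists, with the number of members in brackets. Points are genes, red where at least 2-fold higher and blue where at least 2-fold lower, the black bar is the list median, and the grey band is the central 90% of all measured genes. Megakaryocyte, B cell and osteoclast lists lie to the right, interferon and keratin lists to the left, and the secretoglobin list spans both sides.

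Interferons are cytokines released on infection or by activated lymphocytes. They signal through receptors and transcription factors to a large set of target genes, which include guanylate-binding GTPases, antiviral RNA binders and the machinery that loads peptides on class I molecules. In gingiva and ligament these genes are known to follow inflammation and the oral flora. The promoters of 4 targets with wide differences are shown to let the response element be seen. They run from 250 bases before to 50 bases after the annotated start, on the gene's own strand, from RefSeq on build GRCm38.p6. Capitals mark the core of the interferon-stimulated response element, which is GAAA, any 2 bases and GAAA again, searched on both strands.
Cxcl10, chr5:92348840-92349139, minus strand: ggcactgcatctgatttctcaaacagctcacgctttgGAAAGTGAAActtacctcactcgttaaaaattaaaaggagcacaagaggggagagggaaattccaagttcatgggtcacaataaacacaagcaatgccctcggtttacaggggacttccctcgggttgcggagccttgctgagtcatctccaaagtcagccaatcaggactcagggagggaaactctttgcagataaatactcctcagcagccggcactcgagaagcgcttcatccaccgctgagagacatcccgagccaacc
Ifit1, chr19:34640639-34640938, plus strand: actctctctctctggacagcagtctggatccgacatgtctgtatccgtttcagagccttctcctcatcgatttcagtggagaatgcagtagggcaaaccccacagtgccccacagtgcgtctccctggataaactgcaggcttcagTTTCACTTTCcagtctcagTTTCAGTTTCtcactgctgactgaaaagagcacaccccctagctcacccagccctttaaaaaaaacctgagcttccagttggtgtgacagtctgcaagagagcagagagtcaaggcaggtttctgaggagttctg
Gbp2, chr3:142620413-142620712, plus strand: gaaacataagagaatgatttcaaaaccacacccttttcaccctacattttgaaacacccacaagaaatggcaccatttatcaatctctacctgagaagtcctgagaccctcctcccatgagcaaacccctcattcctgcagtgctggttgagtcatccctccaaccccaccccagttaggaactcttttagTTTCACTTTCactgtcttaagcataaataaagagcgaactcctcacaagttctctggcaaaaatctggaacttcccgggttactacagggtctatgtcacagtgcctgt
Cxcl9, chr5:92328030-92328329, minus strand: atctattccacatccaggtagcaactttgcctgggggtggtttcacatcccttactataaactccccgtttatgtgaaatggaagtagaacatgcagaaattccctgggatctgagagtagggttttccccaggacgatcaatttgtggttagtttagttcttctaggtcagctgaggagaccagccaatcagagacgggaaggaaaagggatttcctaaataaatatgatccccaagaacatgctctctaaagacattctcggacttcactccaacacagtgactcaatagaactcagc
In Cxcl10 the match begins at position -213 from the start, in Gbp2 at -59, and Ifit1 holds 2 matches, at -104 and -85. Cxcl9, the gene with the widest difference, holds no match in this window, which says only that these letters are not there.

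Among the GTPases and chemokines induced mainly by interferon-gamma, 18 of 19 measured members had negative differences, with a median of -1.27, the lowest of all lists, and 11 of 19 were at least 2-fold lower against 1.37% of all genes. Cxcl9, at 3.17 against -2.56, had a difference of -5.73 and was 53-fold lower. Cxcl10 differed by -3.84, or 14.3-fold. On both genes the WT array of 10 weeks was the high one, since the arrays of 4 weeks read -3.13 and -4.0 for Cxcl9 and -1.56 and -1.23 for Cxcl10. The guanylate-binding proteins attack vacuoles that hold microbes. Gbp2 read 2.42 and -0.35, Gbp3 1.82 and -0.13, Gbp5 0.15 and -1.34, and Gbp7 -1.05 and -2.32. These 4 follow one another among the measured genes in genome order, and formed a run of genes at least 2-fold lower. Genes that were not measured may lie between them. Gbp9 was the exception in the family at 0.71, and Gbp10 read -0.20. Iigp1 and Igtp, immunity-related GTPases, differed by -1.67 and -1.14, Ubd, a ubiquitin-like modifier, by -1.65, and Cd274, which encodes the checkpoint ligand PD-L1, by -1.35. Summed over the list, signal in units of the 75th percentile was 49.3 in WT and 14.9 in Mkx-KO.

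The antiviral interferon-stimulated genes were lower in 29 of 32 members, with a median of -0.69. At least 2-fold lower were 9 members, against 1.37% of all genes, and 4 with normexp. Ifit1, which binds viral RNA, read 1.48 and -0.88, or 5.14-fold lower. Its family members Ifit2, Ifit3 and Ifit3b formed a second run of consecutive measured genes, at -1.24, -1.5 and -1.68. Zbp1, a sensor of left-handed nucleic acid, differed by -1.71, although its second probe read -0.94. Irf7, the transcription factor that amplifies type I interferon, read 3.76 and 2.63. Isg15, Oas1a and Ifih1 differed by -0.89, -0.82 and -0.59. The positive members were Rsad2 (0.48), Oas3 (0.49) and Isg20 (0.55), so the group was not uniform. The related gene Ifit1bl1 was well above background only in WT and was at least 18.6-fold lower, the widest such bound on the array.

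Genes upstream of these targets were read next. Of 21 genes of interferon sensing and signalling 7 were positive and 14 negative, with a median of -0.08, and 1 was at least 2-fold lower. Stat2 and Irf9, parts of the complex that carries the type I signal to the nucleus, differed by -0.70 and -0.44. The receptor chains Ifngr1, Ifngr2, Ifnar1 and Ifnar2 read 0.17, 0.12, -0.06 and -0.01. The kinases Jak1, Jak2 and Tyk2 read -0.23, -0.28 and -0.15. The interferon-gamma gene itself, Ifng, was well above background only in WT and was at least 3.28-fold lower. Ifng was chosen after its values were seen. Of 16 nucleic acid sensors only Zbp1 was 2-fold apart, against 2.41% of all genes, and Sting1, Mavs and Tlr7 lay within 0.05 of 0.

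Class I presentation genes were lower in all 18 of 18 members, with a median of -0.39 and a narrow middle range from -0.53 to -0.30. Nlrc5, the class I transactivator, read 0.35 and -0.99, a difference of -1.34. The class I heavy chain H2-K1 read 6.12 and 5.38, and the light chain B2m 6.15 and 5.74. Psmb9 and Tap1, of the immunoproteasome and the peptide pump, differed by -0.69 and -0.64. Summed signal was 420 in WT and 325 in Mkx-KO. Class II genes, which display peptides to helper T cells, lay closer to 0 with a median of -0.09. H2-Ab1 differed by -0.35 and the class II transactivator Ciita by -0.31, while Cd74, the brightest partner chain, read 4.37 and 4.29.

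The response element matches were common in the interferon lists and uncommon elsewhere. A gene was counted when any of its promoters held a match. Matches stood in 9 of 12 interferon-gamma list genes (75%), 13 of 27 antiviral genes (48.1%) and 5 of 15 class I genes (33.3%). Of all measured genes with a promoter on file, 501 of 12998 held a match (3.85%). Among genes at least 2-fold lower, 20 of 174 with a promoter on file held a match (11.49%), and among genes at least 2-fold higher 2 of 128 did (1.56%). Of those 20 lower genes, 9 are members of the 2 interferon lists, so that share partly repeats the list counts. Read the other way, 20 of 501 measured genes with a match (3.99%) were 2-fold lower, and 154 of 12497 without (1.23%). Most measured genes with a match were thus under 2-fold apart, and their median was -0.02. Within the 2 interferon lists the 22 members with a match had a median of -0.88 and the 15 without had -0.97. The interferon-gamma activated site is TTC, any 3 bases and GAA, searched on both strands. It matched 4 of 12 interferon-gamma list genes (33.3%), 6 of 27 antiviral genes (22.2%) and 2 of 15 class I genes (13.3%). Of measured genes with a promoter on file 8.51% matched, and of lower genes 9.77%.

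T cell genes were lower in 12 of 16 measured members, with a median of -0.42. Icos, a costimulatory receptor of activated T cells, read -1.29 and -2.99, Cd3g of the receptor complex -1.92 and -3.19, and the adhesion receptor Cd6 differed by -1.16. The inhibitory receptor Pdcd1 (PD-1) read -2.25 and -4.07. Foxp3, the factor of regulatory T cells, was well above background only in WT, with a bound of -1.27 on the log2 scale. These genes are dim, and with normexp Icos read -0.82 and Pdcd1 -0.44, the list median was -0.16, and none of the 16 members was 2-fold apart. Other T cell genes did not share this. Cd3e read 0.17, Cd4 0.18, Cd2 0.34 and Cd247 0.41, and the list's summed signal was 17.1 in WT and 18.3 in Mkx-KO, opposite in sign to its median. Cxcr3, the receptor for Cxcl9 and Cxcl10, differed by -0.56. A separate chemokine receptor of tissue T cells, Cxcr6, differed by -1.17. Cytotoxic cell genes had a median of 0.10, with Klrk1 at -0.79, Gzmb at -0.48 and Klrb1c at 1.16 by its brighter probe and 0.32 by the other.

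Chemokines of monocytes and neutrophils were mixed. Ccl2, which recruits monocytes, read 0.40 and -0.91, and its neighbours in function Ccl7 and Ccl12 differed by -1.03 and -1.01. The neutrophil chemokines Cxcl1, Cxcl2, Cxcl3 and Cxcl5 lay between -0.69 and -0.79. At the other end, Ccl28, Ccl9, Ccl11 and Ccl6 lay between 0.48 and 0.65, and the stromal chemokine Cxcl12 read 0.39. Over the list 16 of 27 were negative, and the median was -0.06. Il1rn, the natural blocker of interleukin-1, read 2.99 and 1.82, while Tnf and Il1b differed by -0.09 and -0.07. Among receptors Il12rb1 stood lowest at -1.26. Of inflammatory genes Saa3 read 0.23 and -1.37 and Chil1 2.74 and 1.54, whereas S100a8 and S100a9 read 0.45 and 0.36. Serpina3f gave 3.03 by its brighter probe and -0.52 by the other, so its direction is unsettled. With normexp its value was 1.79. Complement genes had a median of 0.04, from -0.79 for C2 to 0.76 for Cfd.

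**Figure D3:**
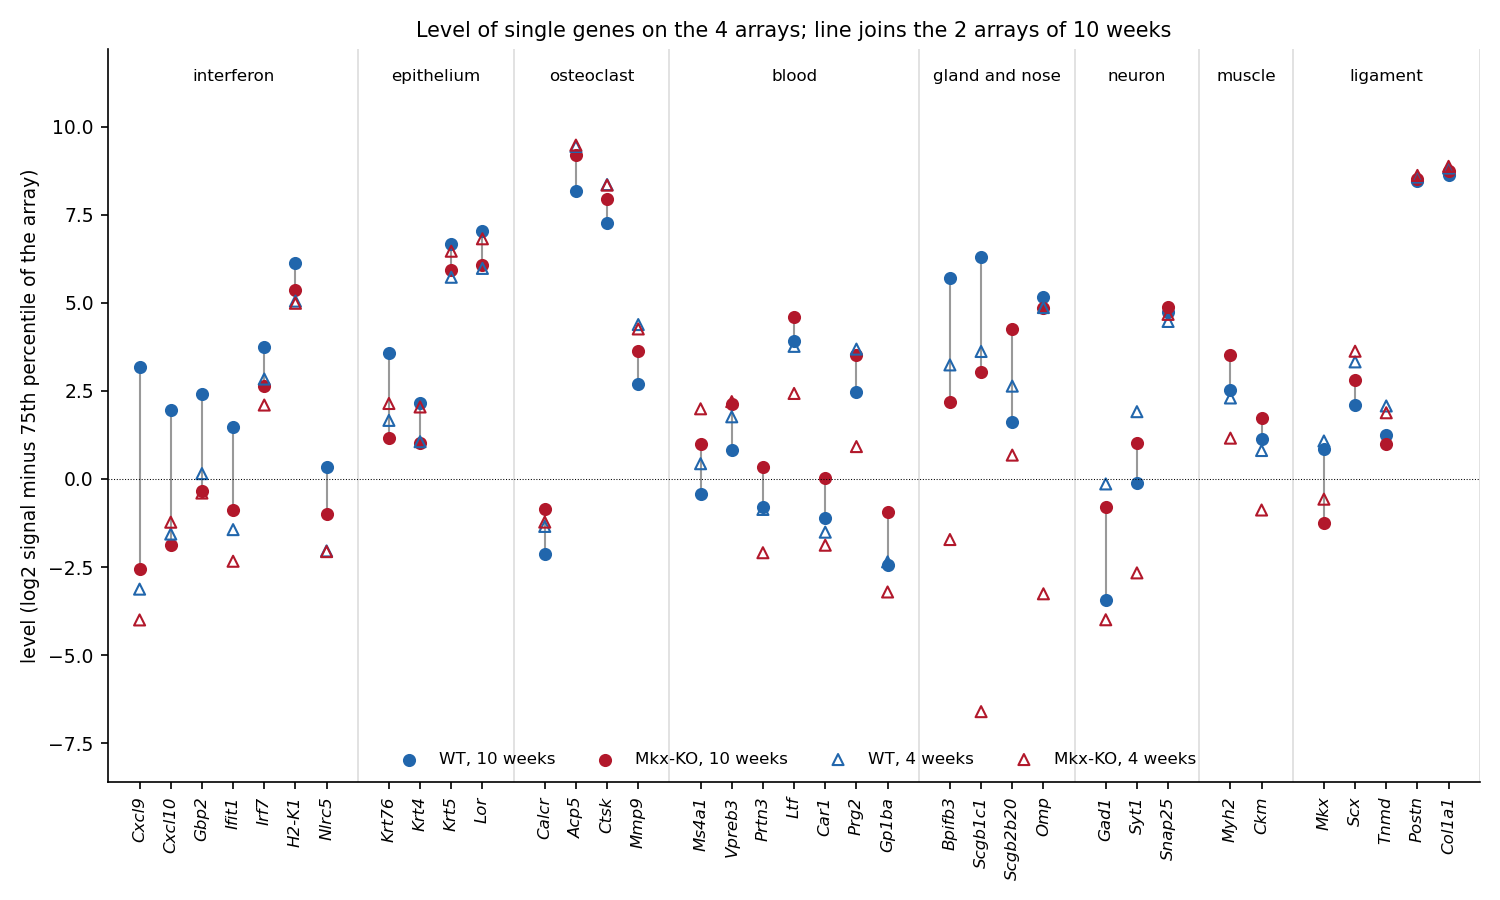
Level (log2 signal minus 75th percentile of the array) of single genes on the 4 arrays, grouped by theme. Filled circles are the arrays of 10 weeks joined by a line, open triangles those of 4 weeks, blue is WT and red is Mkx-KO, with 1 array each. For Cxcl9, Gbp2 and Nlrc5 the WT array of 10 weeks stands above the other 3, for Acp5 and Ctsk it stands below them, and Postn and Col1a1 lie close together on all 4.

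Stratified epithelium covers the gingiva. Its basal cells express keratins 5 and 14, its upper layers switch to other keratins, and its surface cells build a cornified envelope. Of 21 measured keratins, 19 had negative differences, the median was -0.72, and 4 were at least 2-fold lower against 1.37% of all genes. Krt76, a keratin of the masticatory mucosa, read 3.56 and 1.17, a difference of -2.39. The basal keratins Krt14 (8.39 and 7.56) and Krt5 (6.66 and 5.94) were lower by a smaller margin, as was the suprabasal Krt10 (4.61 and 3.89). Krt24, Krt4 and Krt13 lay between -1.20 and -1.04. The simple-epithelium keratins Krt8, Krt18 and Krt19 read -0.11, -0.18 and 0.15, and Krt2 was the highest at 0.50. Summed keratin signal was 1470 in WT and 799 in Mkx-KO.

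Desmosome and envelope genes were lower in 25 of 26 members, with a median of -0.65. Hrnr and Crnn, which encode fused-type proteins of the envelope, read 1.86 and 0.45, and -0.60 and -1.84. Lor, the main envelope protein loricrin, read 7.03 and 6.08. The desmosomal cadherin Dsg3 and the plaque protein Dsp differed by -0.78 and -0.68, and Pkp2, a plaque protein found outside skin as well, read 0.32. Late cornified envelope genes sit in a cluster, where 2 runs of consecutive measured genes were at least 2-fold lower. Lce1c to Lce1i lay between -1.26 and -1.02, and the Lce3 group ran from -1.09 for Lce3a to -1.84 for Lce3f. Hrnr, Crnn and Rptn formed another run. The runs were found after the values were seen. Sprr2a2 gave -0.24 by its brighter probe and -3.01 by the other.

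Junction and identity genes of epithelium showed the same direction at smaller size, with 24 of 26 negative and a median of -0.49, or -0.27 with normexp. E-cadherin, Cdh1, read 1.37 and 0.84, Cldn1 differed by -0.57, and the transcription factors Grhl1 and Ovol1 by -1.04 and -0.76. Trp63, the master regulator of basal cells, read 0.09 by its brighter probe and -0.75 by the other. The laminin that anchors epithelium was lower too, with Lama3 at -1.05 and Lamb3 at -0.96, as were its receptor parts Itgb4 (-0.46) and Itga6 (-0.44) and the hemidesmosomal collagen Col17a1 (-0.58). Itgb6, an epithelial integrin, differed by -1.05. The vessel and stroma laminins Lama2, Lama4 and Lamb2 lay within 0.08 of 0. The defensins Defb1 and Defb4 differed by -1.03 and -1.16. With normexp no gene of the mucosal defence list was 2-fold lower.

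Other epithelial genes far down the range were Prss27, a membrane protease (0.64 and -1.71), Dnase1l2, which clears DNA in cornifying cells (0.60 and -1.66), the lipase Lipk (-1.41 and -3.18) and the protease inhibitor Serpinb3a (3.88 and 2.18). For these the arrays of 4 weeks had Mkx-KO above WT, by 0.76, 0.23, 0.54 and 0.17. For keratins the median at 4 weeks was 0.48 and for the desmosome list 0.43, so both lists stood on the other side of 0 at that age. With normexp Lipk differed by -0.70 at 10 weeks.

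Lipid genes were lower as well. Of 18 sebaceous-type genes 15 were negative, with a median of -0.37, led by Elovl3 (-0.93) and Acsbg1 (-0.85), and Fabp5, a fatty acid carrier of keratinocytes, read 7.26 and 6.43. Cholesterol synthesis genes were negative in 21 of 23 cases, with a median of -0.40, and none was 2-fold apart. Msmo1 read 3.89 and 3.19, and Sqle 3.16 and 2.61. Srebf2, the factor that drives the pathway, was at -0.06. The exception was Stard4, a carrier of cholesterol between membranes, at 0.57. At 4 weeks 22 of the 23 were positive.

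Osteoclasts dissolve bone by secreting acid and cathepsin K. They form by fusion of marrow precursors under RANKL. All 20 of 20 osteoclast genes had positive differences, with a median of 0.83, and 7 were at least 2-fold higher against 1.04% of all genes. With normexp 3 of the 20 were 2-fold higher, and the median was 0.74. The summed signal of the list was 519 in WT and 959 in Mkx-KO. Acp5 (tartrate-resistant phosphatase) read 8.17 and 9.19, Ctsk (cathepsin K) 7.27 and 7.94, Mmp9 2.70 and 3.64, and Itgb3 3.02 and 3.92. Calcr, the calcitonin receptor of mature osteoclasts, read -2.13 and -0.85. The fusion genes Dcstamp and Ocstamp both differed by 1.07, and the proton pump subunit Atp6v0d2 by 1.09. Genes shared with other cells were nearer 0, with Nfatc1 at 0.14 and Clcn7 at 0.21. The housekeeping proton pump subunits had a median of 0.17.

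For the osteoclast list the WT array of 10 weeks was the low one. It was the lowest of the 4 arrays in 20 of 20 genes, against 34.2% of all genes measured on all 4. At 4 weeks Acp5 read 9.44 for WT and 9.48 for the knockout, above both arrays of 10 weeks. Of the signals that control osteoclasts, RANKL (Tnfsf11) read -1.0 and -0.33, its receptor RANK (Tnfrsf11a) 0.95 and 1.53, and the decoy receptor osteoprotegerin (Tnfrsf11b) 2.96 and 2.67. Csf1 read -0.08, its receptor Csf1r 0.45, and the alternative ligand Il34 -0.57.

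Bone-forming genes did not differ as a block. Of 19 osteoblast and cementoblast genes 11 were positive, and the median was 0.04. Ibsp, bone sialoprotein of the mineral front, read 5.34 and 6.92, a difference of 1.58. Mepe, a phosphoprotein of osteocytes, read 2.71 and 3.66, and the Wnt inhibitor Sost of osteocytes was 0.64 above WT. Bglap (osteocalcin) read 0.30, and Alpl, Runx2, Sp7 and Dmp1 read -0.33, -0.26, 0.06 and 0.04. At 4 weeks Ibsp and Mepe stood on the other side, at -1.13 and -1.5. Of mineral inhibitors, Ahsg differed by -1.20 from a dim level of -2.16 in WT, and Mgp and Ank by -0.02 and -0.14.

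Tooth genes were mixed too. Odam, made by ameloblasts and junctional epithelium, read 4.44 and 3.10. Dspp, the dentine phosphoprotein of odontoblasts, read -0.38 and 0.63, and Amelx, the main enamel protein, 3.47 and 3.16. Of 14 enamel and dentine genes 10 were negative. In cartilage Sox9, Col2a1 and Acan lay within 0.11 of 0, while the joint-surface gene Prg4 read -2.11 and -0.75 and the secreted Cytl1 differed by 1.05. With normexp no cartilage gene was 2-fold apart, and no enamel or dentine gene was 2-fold higher.

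Mature B cell genes were higher in 16 of 19 members, with a median of 0.88, and 8 were at least 2-fold higher against 1.04% of all genes. With normexp the median of mature B cells was 0.53 and 2 members were 2-fold higher, and among bright genes only the median was 0.16. Ms4a1 (CD20) read -0.44 and 1.0, Cd79b 1.1 and 2.46, and Tnfrsf13c, the receptor for a B cell survival factor, -2.30 and -0.69. Ly6d, which epithelium also expresses, was lower instead, at 6.31 and 5.42, and as the list's brightest member it weighs on the summed signal, 89.3 for WT and 61.2 for Mkx-KO. Of 10 precursor genes 9 were positive, with a median of 0.65, led by Vpreb3 (0.83 and 2.12) of the surrogate light chain. The median of B cell precursors was 0.43 with normexp and 0.25 among bright genes only, and Tnfrsf13c differed by 0.98 with normexp. Among plasma cell genes, Jchain read 0.34 and 1.71 and Mzb1 -2.59 and -1.1, while Prdm1 and Xbp1 read -0.36 and -0.00. Mature B cell genes were also higher at 4 weeks, with a median of 0.84. B cell precursor genes were not, with a 4-week median of -0.25 and 4 positive and 6 negative values.

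Granulocyte genes were also mostly higher. All 10 early granule genes of neutrophils, made in marrow promyelocytes, had positive differences, with a median of 0.76. Mpo (myeloperoxidase) read 4.13 and 4.99 and Prtn3 (proteinase 3) -0.79 and 0.35. Late granule genes were positive in 14 of 16 cases, with a median of 0.65. Ltf read 3.93 and 4.58, Camp 6.30 and 7.04, and Retnlg 2.97 and 4.04, and Stfa3 was the exception at -1.03. Eosinophil and basophil genes had a median of 0.82 with 10 of 11 positive, and the granule genes Prg2 and Prg3 read 2.46 and 3.53, and -0.89 and 0.22. In this list 3 members were at least 2-fold higher, against 1.04% of all genes, and 1 with normexp.

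Red cell and platelet genes were higher as well. All 21 of 21 erythroid genes were positive, with a median of 0.65. Car1 differed by 1.13, the Rh-complex gene Rhag by 1.05, the master factors Klf1 and Gata1 by 0.99 and 0.94, and the haem enzyme Alas2 by 0.48. The very bright Hba-a1 differed by only 0.24. With normexp the erythroid median was 0.48, and no member was 2-fold apart. Haem synthesis and iron genes were positive in 18 of 18 members at a smaller median of 0.26, with the iron exporter Slc40a1 highest at 0.65. Platelet genes had a median of 0.90, the highest of all lists. The glycoprotein Ib chain Gp1ba read -2.45 and -0.95, Clec1b -0.23 and 1.06, and Gp5 -3.65 and -2.01. At least 2-fold higher were 4 of 14 platelet genes, against 1.04% of all genes, and 2 with normexp. With normexp Gp5 differed by 0.76. Tubb1, the platelet tubulin, was above background only in Mkx-KO, at least 3.28-fold higher. Ppbp read -0.42.

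Other marrow-derived cells differed less. Of 25 tissue macrophage genes 20 were positive, with a median of 0.23, from Timd4 at -0.50 to Cd163, a haemoglobin scavenger receptor, at 0.81. Lyz2, the lysozyme of myeloid cells, read 2.44 and 3.13. Dendritic cell genes had a median of 0.02. Mast cell genes ran from the tryptase Tpsb2 at -0.79 to Hdc, the histamine-forming enzyme, at 0.64. Endothelial genes were positive in 22 of 26 members with a small median of 0.12. The summed signal of the early neutrophil list was 43.2 in WT and 69.9 in Mkx-KO, that of the erythroid list 1250 and 1656, and that of the platelet list 69.9 and 85.3. The markers read for neutrophils, red cell precursors and endothelium passed the background flag in WT and Mkx-KO alike.

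The widest split lay in one list of secreted carriers. The secretoglobins are small proteins of exocrine glands, BPI-fold proteins are lipid binders of the airway and nose, and the lipocalins include odorant and pheromone carriers. Of 25 measured members, 9 were at least 2-fold higher, against 1.04% of all genes, and 5 at least 2-fold lower, against 1.37%. Several androgen-binding-protein type secretoglobins were higher: Scgb1b27 read 0.02 and 3.39, Scgb2b27 -0.38 and 2.74, and Scgb2b20 1.61 and 4.25. With Scgb2b15 and Scgb1b20 they made a run of 5 consecutive measured genes in genome order, and such near-identical copies may share signal between probes. Scgb1b7, of the same type, went the other way. It was well above background only in WT and at least 3.34-fold lower, and was chosen after its values were seen. Lower by more than 8-fold were Bpifb6 (3.12 and -0.49), Bpifb3 (5.70 and 2.18) and the nasal secretoglobin Scgb1c1 (6.30 and 3.03). Bpifb4 and Vmo1 differed by -2.80 and -2.84. The odorant carriers Obp1a, Lcn3 and Mup4 were higher by 0.82, 1.38 and 0.76. So both directions occurred among genes of glands and nose. On the array of Mkx-KO at 4 weeks several of these were far lower, with Scgb1c1 at -6.60, Scgb1b27 at -5.89 and Mup4 at -3.59.

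Several other nasal and gland genes lay at the ends of the range. Gpx6, a glutathione peroxidase of olfactory tissue, read 1.76 and -1.63. Chil4 and Chil6, chitinase-like proteins, differed by -3.23 and -2.87, and Cyp2e1, Slc22a20 and Acsm4 by -2.06, -2.14 and -1.89. Cytochrome P450 family 2 genes were negative in 11 of 13 members, with a median of -0.45, or -0.19 with normexp. Of salivary genes Bpifa2 differed by -2.46, while Car6 read -2.56 and -0.64 and the kallikrein Klk1b9 -4.54 and -1.68. Klk1b11 and Klk1b22 were also higher, by 1.72 and 1.54, and Klk1b16 at least 4.88-fold. Amy1, a salivary amylase, read -0.27. The mucin Muc5ac and the trefoil peptide Tff2 differed by 1.5 and 1.15, and the stomach-type secreted protein Gkn1 by 2.27. With normexp these differences were smaller, at -0.86 for Bpifa2, -1.08 for Cyp2e1, 1.17 for Car6, 1.13 for Klk1b9, 0.70 for Klk1b11, 0.99 for Klk1b22 and 1.24 for Gkn1. Olfactory neuron genes differed little, with 16 of 19 negative and a median of -0.20. Ciliated cell genes had a median of 0.19.

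Neuronal genes formed the other part of the upper tail. Gad1 and Gad2, which make the transmitter GABA, read -3.45 and -0.79, and -4.55 and -2.22. The GABA vesicle transporter Slc32a1 read -2.29 and -0.14 and the synaptic vesicle gene Synpr -3.82 and -1.20. Cpne6, Nrip3, Camkv, Hpcal4, Cplx1 and Rbfox3, which are known from forebrain neurons, differed by 2.75, 2.0, 2.04, 1.94, 1.87 and 1.85. Dlgap1, Trim9, Gprin1 and Fam163b lay between 1.62 and 1.98, and Mlc1, a gene of astrocytes, at 2.11. The channel gene Kcnd2 was above background only in Mkx-KO, at least 5.98-fold higher. General nerve genes were mixed. Snap25 read 4.75 and 4.89 and the neurofilament Nefl differed by 0.11, while Syt1 read -0.10 and 1.03, a difference of 1.13. Gad1, Gad2, Synpr and Slc32a1 were under the 75th percentile in both groups at 10 weeks, and WT at 4 weeks stood higher for Gad1 (-0.14), Synpr (0.15) and Slc32a1 (1.1). Nrxn3 read 2.54 and 0.41 by its probes. These are dim genes, and with normexp their differences were smaller. Gad1 then read 1.45, Gad2 0.86, Synpr 1.13, Cpne6 1.19, Nrip3 1.33, Camkv 1.26, Cplx1 1.09, Trim9 1.01 and Mlc1 1.13. Under 2-fold with normexp were Rbfox3 (0.75), Gprin1 (0.68), Fam163b (0.93), Dlgap1 (0.98) and Nrxn3 (0.98). Of the 24 genes of GABA neurons and synapses, 6 were at least 2-fold higher, against 1.04% of all genes, and 3 with normexp.

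Pituitary and peptide genes were few but wide. Prl (prolactin) read -3.36 and 0.27, and Scg2 differed by 1.20. Gh was above background only in Mkx-KO. Pomc, another pituitary gene, read -0.31. Vip, a peptide of parasympathetic nerves, read -1.06 and -4.24, and Tac4 -0.37 and -3.08. Genes of sensory neurons had a median of -0.02, with Calcb at -0.72 and Pou4f1 at 0.77. Schwann cell genes were negative in 14 of 19 members with a median of -0.16, and Mal was the lowest at -0.55. Of the ranked genes, which leave out olfactory receptors and provisional gene names, Fam205a2 stood highest at 4.18, but its other probes read as low as -0.02. With normexp Fam205a2 read 2.42, Prl 2.29, Vip -1.35 and Tac4 -1.48.

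Muscle genes were modestly higher. Of 30 contractile genes 27 were positive, with a median of 0.33, and none was 2-fold apart. Myh2, the fast IIA myosin, was highest, at 2.53 and 3.53. Acta1 read 3.18 and 3.70 and Ckm 1.13 and 1.74. The fast myosins Myh1 and Myh4 both read -0.03. Summed signal was 281 and 363. On the array of Mkx-KO at 4 weeks 26 of 29 of these genes had their lowest level. Smooth muscle and pericyte genes had a median of -0.02. Adipocyte genes were positive in 13 of 17 members, with Adipoq at -1.79 and -0.59. With normexp no adipocyte gene was 2-fold apart.

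The ligament's own matrix is built from fibrillar collagen, trimmed by proteoglycans, cross-linked by lysyl oxidases and threaded by elastic-type fibres. The fibrillar collagen genes had a median of 0.15, under the 0.18 of the 100 brightest genes, and quantile normalization of the arrays brought it to 0.04. Col1a1 read 8.62 and 8.76, Col1a2 9.89 and 10.09, and Col3a1 8.57 and 8.78. The minor chains varied more, with Col24a1 at -0.46, Col11a1 at 0.29 and Col5a3 at 0.45. Col12a1 and Col14a1, which coat fibrils, read 0.19 and 0.32. None of the 11 fibrillar and 6 measured fibril-associated chains was 2-fold apart, against 2.41% of all genes. Col9a1 was above background only in WT, with a bound of -1.56.

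Network and microfibrillar collagens had 8 of 10 negative values and a median of -0.31, or -0.13 with normexp. The main collagen VI chains Col6a1, Col6a2 and Col6a3 lay within 0.06 of 0, so the lower values came from Col6a4 (-0.68), Col26a1 (-0.62), Col8a1 (-0.43) and Col7a1 (-0.35), the anchoring fibril collagen of epithelium. Col4a1, of vessel basement membrane, was higher by 0.55 and Col4a2 by 0.21.

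Collagen-modifying enzymes were mostly positive. Lox read 3.35 and 4.29, a difference of 0.95, while Loxl1, Loxl2 and Loxl3 lay between -0.13 and 0.09. Plod2 and Plod3, lysyl hydroxylases, both read 0.36. The prolyl hydroxylase subunits P4ha1 and P4ha2 read 0.48 and 0.45, and the collagen chaperone Serpinh1 0.27. Of the 18 prolyl hydroxylases and chaperones 15 were positive, with a median of 0.11. Lox was above WT at 4 weeks as well, by 0.88, and its level was higher in both arrays of that age.

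Small leucine-rich proteoglycans regulate fibril width. Kera (keratocan), a dim gene here, read -1.92 and -3.83, and 11 of 16 members were negative. Dcn (decorin), a bright one, read 8.73 and 8.47. Ogn, Fmod, Prelp and Lum read -0.29, -0.19, -0.17 and -0.04, and Aspn, Chad and Bgn 0.17, 0.19 and 0.21. With normexp Kera differed by -0.70, under 2-fold, and no member of the list was then 2-fold apart. At 4 weeks Kera differed by -1.16. Elastic and oxytalan fibre genes had a median of -0.06, with Eln, Fbn1 and Fbln5 at -0.07, 0.05 and -0.06. Efemp1 read -0.50, and Mfap5 and Fbln2 0.36 and 0.33.

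Matricellular genes, which tune cell contact with matrix, spread wider. Spon2 read 0.94 and 2.44, a difference of 1.5, and was above WT by 1.07 at 4 weeks. Tnxb differed by 0.83, and 4 CCN genes by about the same amount, Ccn2 0.63, Ccn3 0.60, Ccn4 0.57 and Ccn5 0.64, while Ccn1 read -0.13. Tnc read 0.52, Fn1 -0.23 and Smoc1 -0.93. Sparc and Spp1 lay at 0.19 and 0.16. The fibroblast gene Dpt read 0.04 and 1.11, and Ly6a, a stem and interferon-inducible surface marker, 4.89 and 3.98.

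Ligament identity genes were near their WT level. Of 16 marker genes 11 were negative, with a median of -0.18 and none 2-fold apart, against 2.41% of all genes. The lowest were Ostn (-0.78), Omd (-0.44) and Wif1 (-0.37). Tnmd (tenomodulin) read 1.26 and 0.98, and Scx (scleraxis), the tendon factor, 2.10 and 2.81. Scx was the highest of 22 connective tissue regulators, whose median was -0.01, and Klf4 at -0.42 and Twist2 at -0.38 were the lowest. Egr1 and Egr2, which respond to load in tendon, both read 0.04. Jaw patterning factors were negative in 16 of 26 members. Irx1 (0.50 and -0.59) and Pitx1 (-0.74) stood lowest, and Msx1, Msx2 and Dlx5 lay within 0.11 of 0.

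No matrix metalloproteinase, ADAM-family protease or protease inhibitor on the lists was 2-fold apart, against 2.41% of all genes. The neutrophil and osteoclast enzymes Mmp8 and Mmp9 read 0.66 and 0.94. Mmp13, the brightest collagenase, read 5.64 and 5.82, and Mmp2 and Mmp14 read -0.14 and 0.09. The aggrecanases Adamts4, Adamts5 and Adamts8 read 0.91, 0.53 and 0.90. Timp4 was the highest inhibitor, at -2.41 and -1.44, and Timp1 read 0.42. Has2, a hyaluronan synthase, differed by -0.69, and Vcan and Acan by 0.09 and 0.11. Ncan, a proteoglycan of brain, differed by 1.13. With normexp no gene of the hyaluronan and large proteoglycan list was 2-fold apart.

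Growth factor pathways lay near 0 as lists. The TGF-beta list had 24 members between -0.38 and 0.22, with Tgfb1, Tgfb2 and Tgfb3 at 0.02, 0.03 and 0.14. BMP genes were negative in 21 of 30 members with a median of -0.11. Bmp7, Bmp2 and Bmp4 read -0.30, -0.19 and -0.03, the receptor Bmpr1b -0.79, the antagonist Grem1 -0.38, and the target Id1 -0.39.

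Wnt genes leaned the same way. Of 11 measured ligands 8 were negative, with a median of -0.20. Wnt4 read 2.40 and 1.76, Wnt10a differed by -0.42, and Wnt5a read -0.62 by its brighter probe and 0.22 by another. Receptors and modulators were negative in 24 of 35 cases, and the R-spondin Rspo3, which amplifies Wnt signals, read -1.12 and -2.06. Among targets Sp5 differed by -1.0 from a dim level of -3.04, Ccnd1 by -0.45, and Axin2, the usual reporter of the pathway, by -0.12. Hedgehog genes were negative in 11 of 15 members, with the receptor Ptch1 at -0.29 and the reporter Gli1 at 0.09.

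Epidermal growth factor genes had 9 of 11 negative values and a median of -0.29. The ligands Ereg, Nrg4 and Areg read -0.90, -0.90 and -0.70, and the receptor Egfr -0.17. In the Notch list Notch1 was highest at 0.69 and Hes1, its target, read 0.35. Fgfr4 led the FGF list at 0.73 and Fgfbp1 closed it at -0.88. In the IGF list Igf2 and its binding proteins Igfbp2 and Igfbp5 read -0.54, -0.61 and -0.47, while Igf1 read -0.04. Sema3c, a guidance cue, read 1.62 and 3.09, and was the only 2-fold member of 37 guidance genes, against 2.41% of all genes. It was above WT at 4 weeks too, by 0.90. The YAP target Ankrd1 read -0.66, and Piezo1, Trpv4 and Srf lay within 0.08 of 0.

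Clock genes had a median of 0.01 with members apart in both directions. Arntl read 0.79 and Npas2 0.54, which peak together, and Nr1d1, their repressor, 0.66, while Per3 read -0.63 and Dbp 0.16. Immediate early genes lay within 0.52 of 0, with Fos at -0.11. Retinoic acid genes were negative in 10 of 16 members. Glucocorticoid-induced genes were positive in 10 of 14, with Lcn2 highest at 0.76.

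Among genes of basic cell functions no list had a median beyond 0.5, and few held a 2-fold member. Mitosis genes were positive in 24 of 24 members with a median of 0.26, led by Cenpa (-0.20 and 0.41) and Ube2c (0.60), while Mki67 read 0.16. DNA replication genes had a median of 0.12. Respiratory chain subunits were positive in 27 of 36 cases, with the muscle-type subunit Cox7a1 highest at 0.59. Ribosomal proteins were positive in 27 of 30, with a median of 0.14 that lies under that of the brightest genes. Ribosome assembly genes were negative in 16 of 18, with Nop58 at -0.42. ER folding, proteasome, splicing and autophagy lists had medians between -0.01 and 0.07.

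Glycolysis genes ran from Slc2a1 at -0.46 to the muscle enzyme Pgam2 at 0.67, with a median of -0.04. In the hypoxia list only Egln3 was 2-fold apart, at -1.12, against 2.41% of all genes, and Vegfa and Adm read -0.13 and 0.00. With normexp no gene of that list was 2-fold apart. Among glutathione and NRF2 genes, Slc7a11, the cystine importer, differed by -1.16, Gsta2 by -1.37, Nqo1 by -0.61 and Gpx1 by 0.57. Slc7a11 read -2.0 by its second probe.

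**Figure D4:**
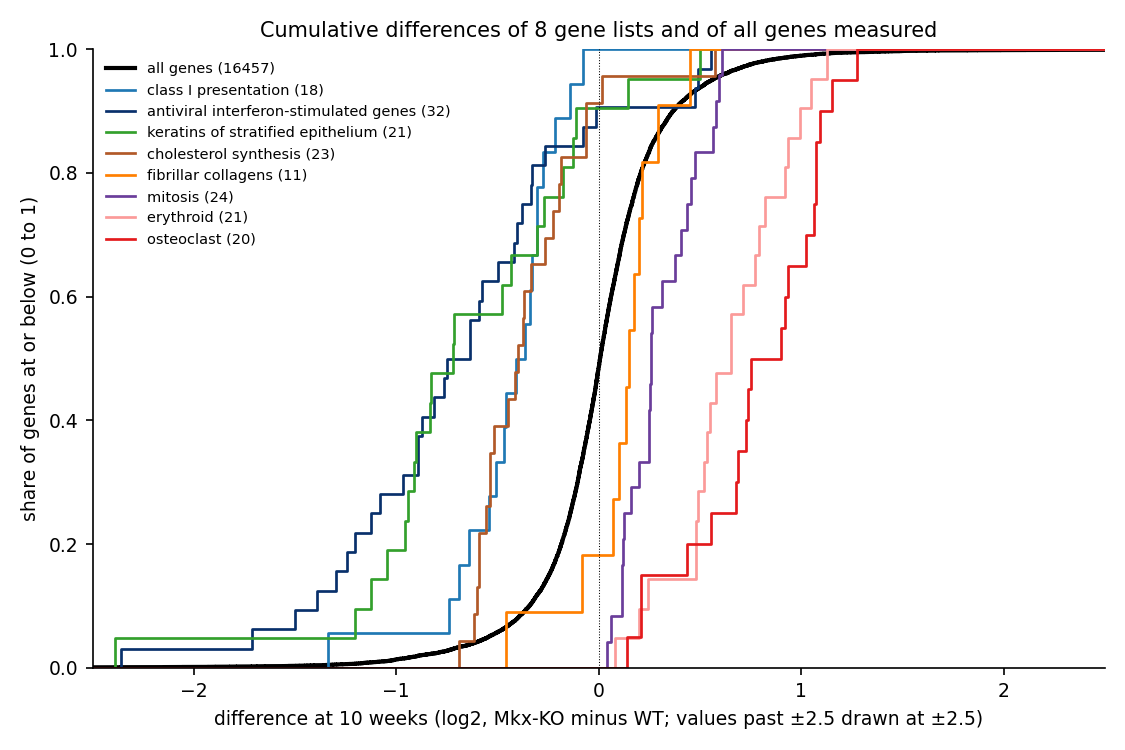
Cumulative share of genes at or below a difference (log2, Mkx-KO minus WT at 10 weeks) for 8 gene lists and for all 16457 measured genes, with values beyond 2.5 in either direction drawn at the edge and list sizes in brackets. Cholesterol and class I curves lie left of the black curve by a narrow step without reaching 2-fold in most members, keratin and antiviral curves lie further left, and erythroid and osteoclast curves lie right of 0 throughout.

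Set beside the 4-week pair, which shares no array with this one, the lists fell into several patterns. Interferon-gamma genes had a median of -1.27 at 10 weeks and -0.22 at 4 weeks. The WT array of 10 weeks was the highest of 4 in 15 of 18 of these genes, in 27 of 31 antiviral genes and in 18 of 18 class I genes, against 21.6% of all genes. It was also the highest in 16 of 21 keratins and 19 of 24 junction genes. For early neutrophil granules the Mkx-KO array of 10 weeks was highest in 9 of 10, and for erythroid genes in 16 of 20, against 16.1% of all genes. Among 15504 genes measured at both ages the correlation of the differences across genes was -0.16, a description only, since genes are not replicates.

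**Figure D5:**
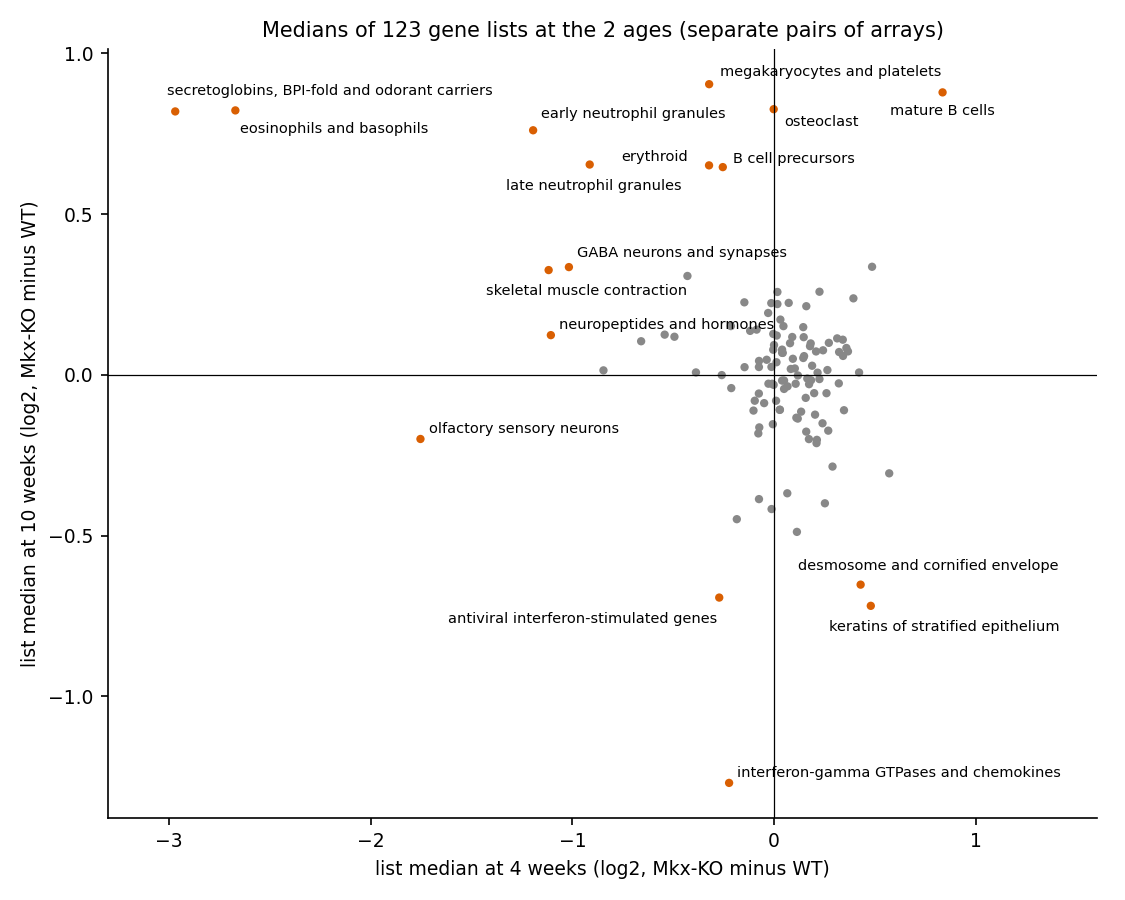
Median difference (log2, Mkx-KO minus WT) of the 123 gene lists at 10 weeks (vertical) against 4 weeks (horizontal), 1 point per list, with labelled lists in orange. Mature B cells are at the upper right with 0.88 and 0.84, secretoglobins at the upper left with 0.82 and -2.97, keratins at the lower right with -0.72 and 0.48, and most lists lie close to 0 on both axes.

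At the level of genes, 124 of those at least 2-fold higher at 10 weeks were measured at both ages. Of these, 8 were also 2-fold higher at 4 weeks and 58 were 2-fold lower. Of 187 that were lower, 17 were lower and 3 higher at 4 weeks. At 4 weeks 3.78% of genes were 2-fold apart, 3.31% lower and 0.472% higher. Mkx, Kera and Bpifb3 were among the genes at least 2-fold lower at both ages, Kera not with normexp, and Spon2 and Ms4a1 among those higher at both. These names were chosen after the values were seen.

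Genes above background on 1 array only complete the picture. There were 421 such genes in WT and 201 in Mkx-KO, and 35 and 38 of them were at least 2-fold apart when the dim side was set at the lowest level well above background on its array. After Ifit1bl1, the widest bounds lower in Mkx-KO were Srd5a2, a steroid reductase (at least 5.02-fold), Rgr (4.91), the lens crystallin Crygc (4.58) and the xenobiotic enzyme Cyp1a1 (3.36). Among the wide bounds higher in Mkx-KO, after Kcnd2, were Klk1b16, Smco2 (at least 4.15-fold) and Tubb1.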

How the data were processed

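Total RNA (0.1 ug, Cy3, 1 colour) from PDL was hybridised to Agilent arrays, 1 per group, per the labels' protocols. The deposited intensity values are processed spot signals of Feature Extraction 11.5.1.1, per the submitters' processing notes. The authors' deposited series table equals them times 1 factor per array (1.81 and 2.08 at 10 weeks), a signal scaling whose choice is not given in the sources used here. Here, control and outlier spots (60 and 67) were left out, log2 was taken, the 75th percentile subtracted, spots of a probe averaged and the brightest probe kept per gene. No spot was saturated, and 66.6% (WT) and 65.3% (Mkx-KO) of probes were well above background. The number of arrays limits the precision. All 4 arrays lay on 1 slide. Accessions matched to the RefSeq gene table (GRCm38.p6) named 32994 of 56605 probes (58.3%). Summaries were tested on simulated data. Python 3.11.15, pandas 2.3.3 and limma 3.58.1 (normexp) were used. Members and lists were chosen with earlier results of these data known. Named were Mkx and its neighbours, ranks 1 to 40 each way (without olfactory receptors and provisional names), the 5 widest bounds each way, the 20 brightest genes and members of the lists. Other genes are marked. Alternatives covered scaling, background correction, filters, probes and thresholds. Some results are not reported here.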

Additional observations from a re-analysis of the deposited data

Results flagged for a closer look

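The medians of 12 of the 123 lists lay at least 0.3 from 0 at both ages and on opposite sides. Each pair rests on 1 array per group, and the difference between ages was not tested. Among blood cell lists the values at 10 and 4 weeks were 0.76 and -1.19 for early neutrophil granules, 0.65 and -0.91 for late neutrophil granules, 0.65 and -0.32 for erythroid genes, 0.82 and -2.67 for eosinophils and basophils, and 0.90 and -0.32 for megakaryocytes and platelets. Among epithelial and matrix lists they were -0.72 and 0.48 for keratins, -0.65 and 0.43 for desmosome and envelope genes, and -0.31 and 0.57 for microfibrillar and network collagens. Secretoglobins and odorant carriers read 0.82 and -2.97, GABA neurons and synapses 0.34 and -1.02, skeletal muscle contraction 0.33 and -1.12, and adipocytes 0.31 and -0.43.

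Probes without a gene name were left out of the comparison. Of these, 11410 were well above background on both arrays of 10 weeks, and 130 were at least 2-fold higher and 47 at least 2-fold lower in Mkx-KO. Of the 16457 measured genes 171 were higher (1.04%) and 225 lower (1.37%). The higher count of unnamed probes is thus near the share among genes, and the lower count is under it.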

How the results depend on the processing

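No paired analysis was possible because each group had 1 array. Counts of genes at least 2-fold higher and lower were 54 and 96 with normexp background correction, 42 and 96 for bright genes only, and 267 and 351 when 1 array above background was enough. A threshold of 1.5-fold gave 745 and 723, and 3-fold 40 and 46. The Mkx difference at 10 weeks was -1.47 with normexp. The interferon-gamma median was -0.90 with normexp and -1.67 for bright genes. Mature B cells read 0.53 and 0.16, and B cell precursors 0.43 and 0.25, under the same settings. Megakaryocytes read 0.65 with normexp, and secretoglobins 0.33 with genes well above background on all 4 arrays. Mucosal defence turned to -0.0851 with that filter, and for bright genes mast cells turned to -0.18 and progenitors to -0.0755. The cause was not tested. In all 1072 of 1089 list values moved by less than the median technical error and kept their direction where the median was at least 0.1 from 0. Any sign turned in 34 of 123 lists, none with a median beyond 0.14. Of 640 values of the ranked genes 562 moved by less than their technical error, 78 moved further and none changed sign. Many of these 640 could not move. The filters keep a gene's value, and averaging probes leaves genes with 1 probe as they were. The deposited table at the 75th percentile differs by 1 factor per array only, so it moves neither genes nor lists. With normexp, which changes the background and adds an offset that shrinks dim differences, 23 of the 80 ranked genes came under 2-fold. With normexp, the 2-fold members of several other lists also came under 2-fold. Among these lists were Wnt targets, mineral inhibitors, jaw patterning factors, fibroblast markers, non-blood integrins, chemokine receptors and cytokine receptors. With 1 array per group, no value here shows the spread between mice.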
